A study of Rattus norvegicus with 15 samples.

Results

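Kcnk2, Rasd2, Tppp3, Cited4, Stmn3, Slc5a5, Slc16a13, Angptl2 and Gask1a are 9 genes whose liver transcript signal was lower in rats given the insecticide fipronil than in rats given vehicle. They were chosen from that very comparison, as 9 of the 11 largest falls past the significance threshold among genes with a symbol, so their differences between the groups, with their errors and intervals, are given as a description and support nothing. Where a call is said to be lost, that says only how near a gene lay to the threshold by which it was chosen. Every probe that names one of them was read, which gave 10 probes for the 9 genes (Rasd2 has 2) out of 41012 probes standing for 36240 features on the array. A feature here is a gene, represented by its brightest probe, or a probe without a gene symbol. All 9 genes were well above background on at least 7 of the 15 arrays and so entered the fit, in which 20129 features were tested.

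The genes belong to different families. Kcnk2 encodes TREK-1, a two-pore domain potassium channel that carries a background current and opens with membrane stretch and fatty acids. Slc5a5 encodes the sodium iodide symporter, best known for iodide uptake in the thyroid, and Slc16a13 encodes a member of the monocarboxylate transporter family. Rasd2, also called Rhes, encodes a Ras-like small G protein known from the striatum. Cited4 encodes a coactivator that binds the acetyltransferases CBP and p300, and Angptl2 encodes a secreted angiopoietin-like protein. Tppp3 belongs to a family of proteins that promote tubulin polymerization, whereas Stmn3 is a stathmin, a family that binds tubulin and destabilises microtubules. Gask1a, formerly Fam198a, encodes a Golgi-associated kinase family protein. The description as channel, signalling and cytoskeletal genes covers the potassium channel, the small G protein, the coactivator, the secreted protein and the pair of tubulin-binding proteins; both transporters and Gask1a fall outside it.

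The rats were female Wistar Crl:WI animals aged 2 to 3 months. The treated group (n = 8) received fipronil, which blocks GABA-gated chloride channels of insects, at 3 mg/kg per day for 14 days, given by feeding needle. The control group (n = 7) received the vehicle alone, a water solution of 0.5% methylcellulose with 0.01% Tween 80, and each rat's RNA, from a piece of the large liver lobe, went on 1 one-colour array without pooling. Signal is log2 intensity minus the log2 of the array's own 75th percentile, and 1 unit of signal is a 2-fold difference. In such whole tissue, fewer cells of a type and less RNA per cell cannot be told apart.

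RefSeq promoter windows of build GRCr8, from 250 bases before to 50 bases after a transcription start, were available for 6 of the 9 genes (7 windows, since Kcnk2 has 2); Tppp3, Slc16a13 and Gask1a had none. The stretches below run 5′ to 3′ on the gene's strand and end at the last base before the start. They are shown so that the upstream sequence of genes that fell in the same rats can be set side by side. Capitals mark GGGCGG, a GC box, or CCAAT, each on either strand (the other strand reads CCGCCC or ATTGG).
Rasd2, chr19:13599858-13600027, plus strand: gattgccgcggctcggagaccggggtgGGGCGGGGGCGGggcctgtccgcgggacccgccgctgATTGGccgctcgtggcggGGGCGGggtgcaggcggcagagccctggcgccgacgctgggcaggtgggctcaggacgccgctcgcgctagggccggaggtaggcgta
Slc5a5, chr16:18580535-18580704, plus strand: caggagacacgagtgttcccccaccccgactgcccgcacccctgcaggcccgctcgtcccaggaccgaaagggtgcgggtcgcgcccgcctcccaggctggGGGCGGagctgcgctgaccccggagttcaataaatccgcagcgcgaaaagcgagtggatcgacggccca
Angptl2, chr3:36914706-36914875, plus strand: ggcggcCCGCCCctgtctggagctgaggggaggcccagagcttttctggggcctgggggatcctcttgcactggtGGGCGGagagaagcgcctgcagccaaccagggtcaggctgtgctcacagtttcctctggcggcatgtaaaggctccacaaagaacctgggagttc
Cited4, chr5:139531995-139532164, plus strand: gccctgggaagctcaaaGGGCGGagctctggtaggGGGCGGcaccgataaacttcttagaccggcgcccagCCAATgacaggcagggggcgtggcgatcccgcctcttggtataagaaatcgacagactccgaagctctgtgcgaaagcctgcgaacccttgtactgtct
Stmn3, chr3:188802495-188802664, minus strand: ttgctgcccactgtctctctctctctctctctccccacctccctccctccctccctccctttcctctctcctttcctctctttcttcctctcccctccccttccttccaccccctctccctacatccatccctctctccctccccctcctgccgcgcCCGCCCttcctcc
Kcnk2, chr13:103494687-103494856, minus strand: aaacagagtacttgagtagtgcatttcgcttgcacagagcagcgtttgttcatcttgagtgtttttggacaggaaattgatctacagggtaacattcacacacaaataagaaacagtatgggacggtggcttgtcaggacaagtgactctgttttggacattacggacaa
GGGCGG was found in 5 of the 6 genes, and in 33.1% of all 33469 RefSeq promoters of the same length. Rasd2 held 3 matches, Angptl2 3 (the farthest, starting at position -239, lies before the stretch printed), Cited4 2, Slc5a5 1 and Stmn3 1, the last starting at -13 on the other strand. The Kcnk2 windows, also the poorest in G and C at 44.3% and 41.7%, held no match. The remaining windows ran from 56.7% G and C in Cited4 to 77.0% in Rasd2, against a median of 51.7% over all promoters. CCAAT was found in Cited4 and Rasd2, 2 of 6 genes, and in 37.5% of all promoters. The other motifs, searched on both strands, were in none of the 7 windows. They were TATAAA (in 14.2% of all promoters), TGACGTCA (1.83%), TGACTCA (4.63%), CACGTG (6.42%), AGGTCA (16.2%) and the left and right arms of the RE1 element, TTCAGCACC (0.356%) and GGACAGC (6.59%). A match is a run of letters and not a measured binding site. In Rasd2 the GC boxes starting at -143 and -137 lie end to end.

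The comparison asked which liver transcripts differed after 14 days of fipronil. Of the 20129 features, 171 passed the threshold (limma, Benjamini-Hochberg adjusted p under 0.05), of which 63 were lower and 108 higher with fipronil, while 3532 had an unadjusted p under 0.05. All 9 genes were among the lower ones by the way they were chosen, against 0.313% of all features tested, and nothing is read from that count. The genes spanned a 1.89-fold to 5.91-fold lower level, with a median log2 difference of -1.15 against -0.03 over all features. In 2 of the 9, Cited4 and Gask1a, no fipronil rat reached the lowest vehicle rat, whereas 0.233% of all features had every fipronil rat below every vehicle rat. Gask1a, at -0.92, is the smallest fall included; Sult4a1 at -2.29 and Igfbp6 at -1.22 were among the 11 largest and were not chosen. The next called falls were Pcdh18 at -0.87, Cyp4a8 at -0.81, Tsc22d1 at -0.77, Pde4b at -0.76 and Cyp4a3 at -0.72.

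**Figure D1:**
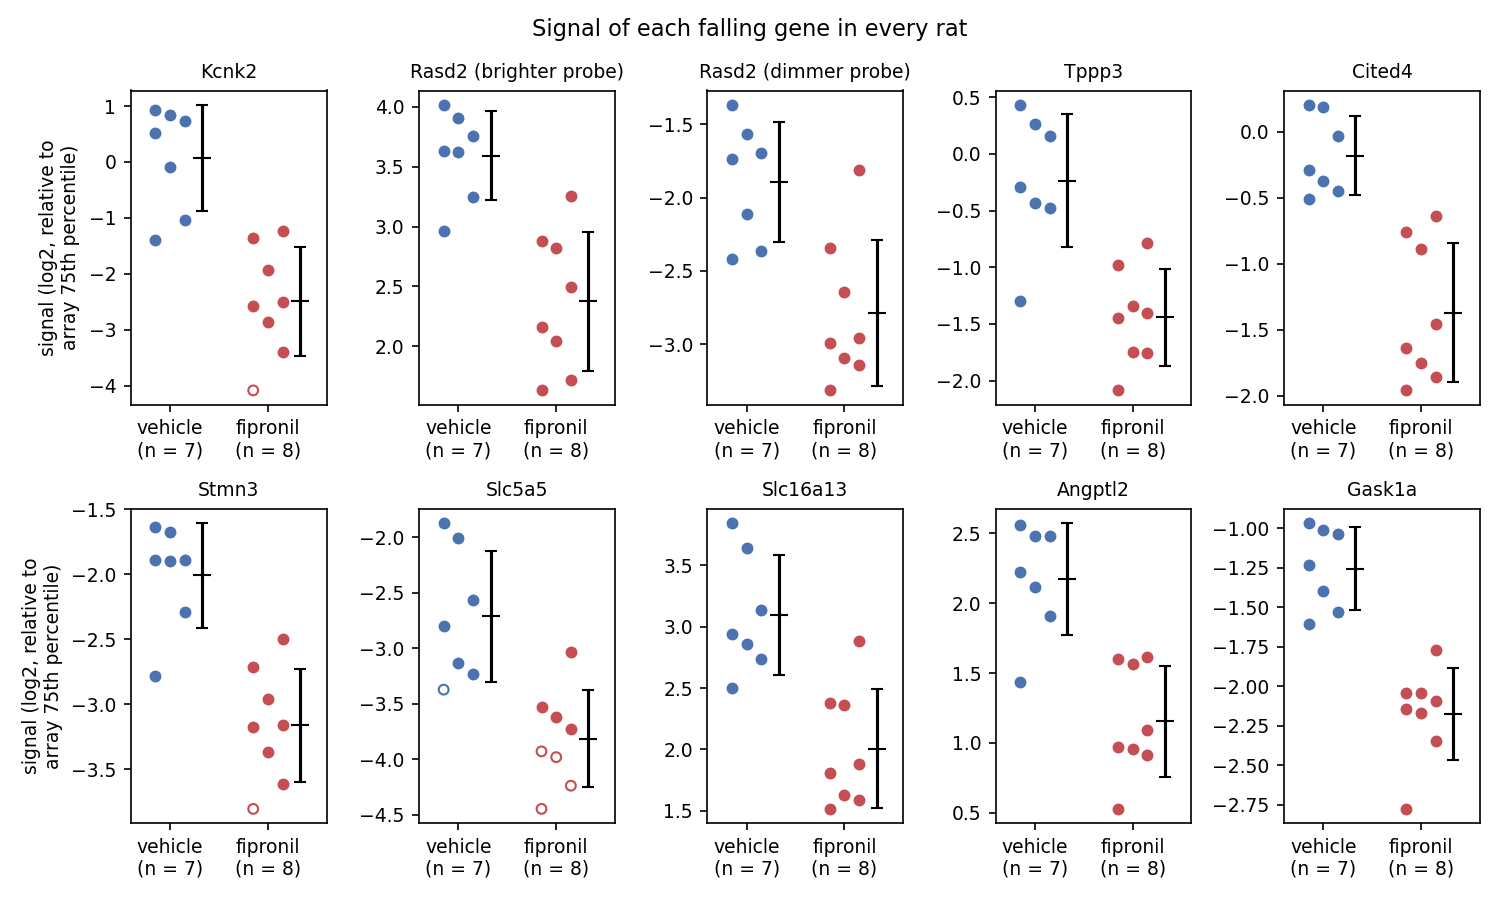
Signal (log2, relative to the array's 75th percentile) of each of the 10 probes in the 7 vehicle and 8 fipronil rats, with its own axis in each panel. Points are rats, open points are arrays on which the probe was not well above background, and bars show the mean ± SD. The groups are apart in Cited4 and Gask1a and overlap in the other panels.

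Kcnk2 showed the largest difference of the 9. Vehicle rats lay between -1.40 and 0.94 with a median of 0.52, and fipronil rats between -4.08 and -1.23 with a median of -2.54. The means were 0.07 ± 0.95 (SD, n = 7) and -2.49 ± 0.98 (SD, n = 8), a log2 difference of -2.56 (SE 0.45, 95% interval -3.52 to -1.61), or 5.91-fold lower with an interval of 3.05 to 11.5. Vehicle rats fell into a high set of 5 and a low pair, replicates 3 and 4 at -1.40 and -1.04, and the upper fipronil rats, replicates 1 and 5 at -1.23 and -1.35, reached into that pair. The median processed intensity, from which background was already removed, fell from 228 to 35.5 (uncorrected local background 45.0). The probe was not well above background in 1 fipronil rat, replicate 8, which was also the lowest. Its probe lies at chr13:105376012-105376071 of build rn4. Normexp background correction of the mean intensity with an offset of 50, followed by quantile normalization, is called normexp here. With normexp the difference was -1.41, and in the authors' deposited values -1.62.

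Slc5a5, the iodide symporter gene, was measured close to background. Vehicle rats lay between -3.37 and -1.87 (median -2.79) and fipronil rats between -4.45 and -3.04 (median -3.83). The means were -2.71 ± 0.59 (SD, n = 7) and -3.81 ± 0.44 (SD, n = 8), a log2 difference of -1.10 (SE 0.25, 95% interval -1.62 to -0.58). The probe was well above background on 6 of 7 vehicle and 4 of 8 fipronil arrays. Its median processed intensity, with background already removed, was 27.4 and 15.3 (uncorrected local background 42.0 around the spot). Only 1 fipronil rat, replicate 5, overlapped the vehicle rats. With normexp the difference was -0.25 and in the authors' deposited values -0.37, and the call was lost in both. Leaving out any 1 of 12 rats also ended the call. The probe lies at chr16:19056181-19056240 of rn4.

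Slc16a13, the other transporter gene, was measured on every array far above background. Vehicle rats lay between 2.50 and 3.84 (median 2.94) and fipronil rats between 1.52 and 2.89 (median 1.85). The means of 3.10 ± 0.49 (SD, n = 7) and 2.01 ± 0.49 (SD, n = 8) differed by -1.09 (SE 0.23, 95% interval -1.58 to -0.60), a 2.13-fold fall. Replicate 2 of the fipronil group, at 2.89, stood within the range of the vehicle rats and the other 7 lay below all of them. The value was -1.04 with normexp. The call was close to the threshold and was lost in 11 of the 15 single-rat omissions and with slide as a block. Its probe lies at chr10:57056541-57056600 of rn4.

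Rasd2, the small G protein gene, has a pair of probes. The brighter one, at chr19:14103930-14103989 of rn4, gave vehicle rats between 2.97 and 4.02 (median 3.63) and fipronil rats between 1.63 and 3.25 (median 2.33). Its means of 3.59 ± 0.37 (SD, n = 7) and 2.37 ± 0.58 (SD, n = 8) differed by -1.22 (SE 0.24, 95% interval -1.72 to -0.72). Fipronil replicate 5 was the 1 fipronil rat inside the vehicle range. The dimmer probe, at chr19:14102451-14102510, gave -1.89 ± 0.41 (SD, n = 7) and -2.79 ± 0.50 (SD, n = 8), a difference of -0.89 (SE 0.22), and was not called when every probe was tested (0.284% of 23256 probes were called lower). The probes ranked the rats alike within groups: over the 15 rats their deviations from the group means had r = 0.90 and rho = 0.86, a description of 2 probes hybridised to the same RNA. The brighter probe lost its call without vehicle replicate 2.

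Cited4, the CBP and p300 binding coactivator, separated the groups. Vehicle rats lay between -0.51 and 0.20 (median -0.29) and fipronil rats between -1.96 and -0.64 (median -1.55). The means were -0.18 ± 0.30 (SD, n = 7) and -1.37 ± 0.53 (SD, n = 8), a log2 difference of -1.19 (SE 0.21, 95% interval -1.63 to -0.74) and a 2.28-fold fall. The fipronil rats formed an upper set of 3, replicates 2, 4 and 5 at -0.89, -0.76 and -0.64, and a lower set of 5 from -1.46 down. Its probe, at chr5:141259221-141259280 of rn4, was well above background on all arrays, with normexp giving -0.70.

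Angptl2, the secreted protein gene, ranged from 1.44 to 2.56 (median 2.22) in vehicle rats and from 0.53 to 1.62 (median 1.03) in fipronil rats. The means of 2.17 ± 0.40 (SD, n = 7) and 1.16 ± 0.40 (SD, n = 8) differed by -1.02 (SE 0.19, 95% interval -1.43 to -0.61). The overlap came from 1 vehicle rat, replicate 3 at 1.44, below fipronil replicates 1, 4 and 5. The call was lost without vehicle replicate 2. The probe, at chr3:12256317-12256376 of rn4, had a median processed intensity of 856 in vehicle and 472 in fipronil rats.

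Tppp3 and Stmn3 are the microtubule genes of the set. Tppp3 signal lay between -1.30 and 0.43 (median -0.29) with vehicle and between -2.09 and -0.78 (median -1.43) with fipronil. Its means of -0.24 ± 0.59 (SD, n = 7) and -1.44 ± 0.43 (SD, n = 8) differed by -1.21 (SE 0.24, 95% interval -1.72 to -0.70). A single low vehicle rat, replicate 2 at -1.30, made the groups overlap, and the other 6 were above every fipronil rat. Omitting fipronil replicate 7 or 8, or vehicle replicate 1 or 6, ended the call. The Tppp3 probe lies at chr19:35284040-35284099 of rn4, and its difference was -0.71 with normexp.

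Stmn3 signal lay between -2.78 and -1.64 (median -1.89) with vehicle and between -3.81 and -2.50 (median -3.17) with fipronil. The means of -2.01 ± 0.40 (SD, n = 7) and -3.16 ± 0.44 (SD, n = 8) differed by -1.15 (SE 0.20, 95% interval -1.58 to -0.72). Here, too, 1 vehicle rat made the overlap, replicate 7 at -2.78, on the dimmest of the 15 arrays. The probe, at chr3:170447030-170447089 of rn4, was faint. Its median processed intensity, with background already removed, was 42.9 and 25.1 (uncorrected local background 43.0), and it was not well above background in fipronil replicate 6. The difference was -0.35 with normexp.

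Gask1a, the Golgi-associated kinase family gene, had the narrowest spread of the 9. Vehicle rats lay between -1.61 and -0.97 (median -1.23) and fipronil rats between -2.78 and -1.77 (median -2.12). The means of -1.26 ± 0.26 (SD, n = 7) and -2.17 ± 0.29 (SD, n = 8) differed by -0.92 (SE 0.14, 95% interval -1.21 to -0.62), a 1.89-fold fall. All 8 fipronil rats were below all 7 vehicle rats. The probe lies at chr8:126957319-126957378 of rn4 and carries an older locus name in the array files, as does that of Tppp3. The fall was -0.40 with normexp and -0.48 in the authors' deposited values.

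The arrays themselves differed between the groups. Vehicle arrays had a 75th percentile of 172 ± 34.1 (SD, n = 7) and fipronil arrays one of 211 ± 25.9 (SD, n = 8) in units of processed intensity (two-sided exact permutation p = 0.0218, adjusted p = 0.0356 over 4 measures), while median background was 43.0 and 43.9 (exact permutation p = 0.474). With array brightness as a covariate, 2 of the 9 genes were still called, Stmn3 at -1.38 (SE 0.23) and Gask1a at -0.99 (SE 0.17). The other 7 lost their call. Of these, Kcnk2 was -2.18 (SE 0.54), Tppp3 -1.30 (SE 0.30) and Slc16a13 -1.19 (SE 0.29). Rasd2, Cited4, Slc5a5 and Angptl2 lay between -1.09 and -0.88. Because brightness differed between the groups, the parts of brightness and of fipronil in the falls cannot be told apart by this fit. The part of brightness was not otherwise tested. Fipronil arrays also held more saturated probes, 168 ± 17.0 (SD, n = 8) against 134 ± 26.8 (SD, n = 7) on vehicle arrays (exact permutation p = 0.0107, adjusted p = 0.0356). None of the 10 probes was saturated on any array.

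**Figure D2:**
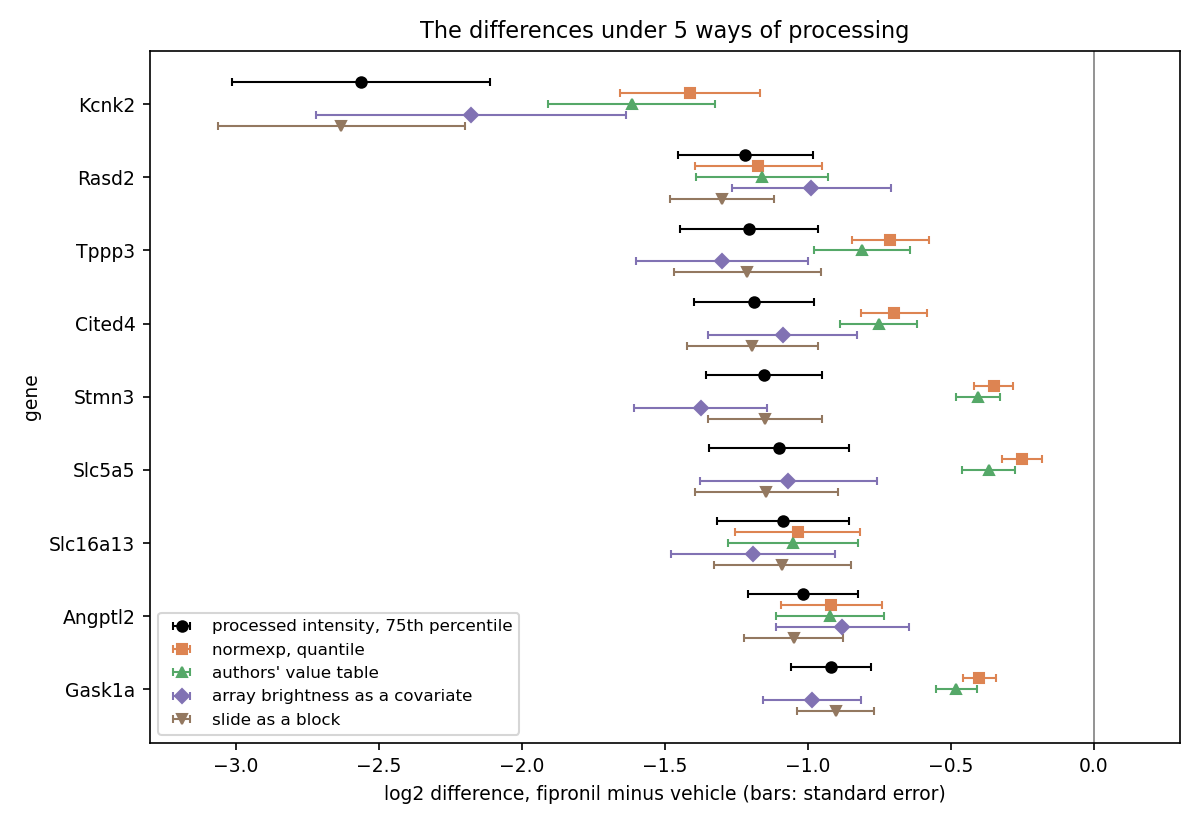
Log2 difference (fipronil minus vehicle, 15 rats) of the 9 genes under 5 ways of processing, with bars for the standard error. Kcnk2, Tppp3, Cited4, Stmn3, Slc5a5 and Gask1a move toward 0 with normexp and in the authors' value table, while Rasd2, Slc16a13 and Angptl2 stay near their value; every point is below 0.

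The genes moved unequally between ways of processing. Rasd2, Slc16a13 and Angptl2 had median processed intensities of 1032, 737 and 472 in fipronil rats (uncorrected local backgrounds 46.0, 42.5 and 45.0). They differed by -1.17, -1.04 and -0.92 with normexp. The 6 others came out smaller by over 1.5 times, as given above for each, and Slc5a5 alone of them lost its call. The normexp setting changes the intensity measure, the background step and the normalization together, and adds an offset of 50 to the intensities. With quantile normalization of the processed intensity, without an offset, Kcnk2 was -2.52, Tppp3 -1.19 and Cited4 -1.17. In that setting Stmn3 was -1.10, Slc5a5 -1.03 and Gask1a -0.88. The cause of the unequal shifts with normexp was not tested. The direction was the same in every setting run.

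Each of the 4 slides carried rats of both groups, so the difference could be read within a slide. All 9 genes were lower with fipronil on all 4 slides, which their choice from these same arrays favoured. The like share over all features was not computed, and nothing is read from that count. Kcnk2 differed by -3.10, -1.18, -2.48 and -3.72 on slides 1 to 4, and slide 2, with the smallest value, held the low vehicle pair. Stmn3 had its smallest value on slide 4 at -0.63, where the other microtubule gene, Tppp3, had its largest at -1.75. Slc5a5 ranged from -1.87 on slide 3 to -0.61 on slide 2, and Angptl2 from -1.34 on slide 4 to -0.51 on slide 2. Slc16a13 was the most even, between -1.24 and -0.95. A slide holds 3 or 4 rats, and these values have no test of their own. Without slide 1 none of the 9 was called, and without slide 4 only 2 were, with 11 rats in each of these fits; the sign was kept in all 9.

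**Figure D3:**
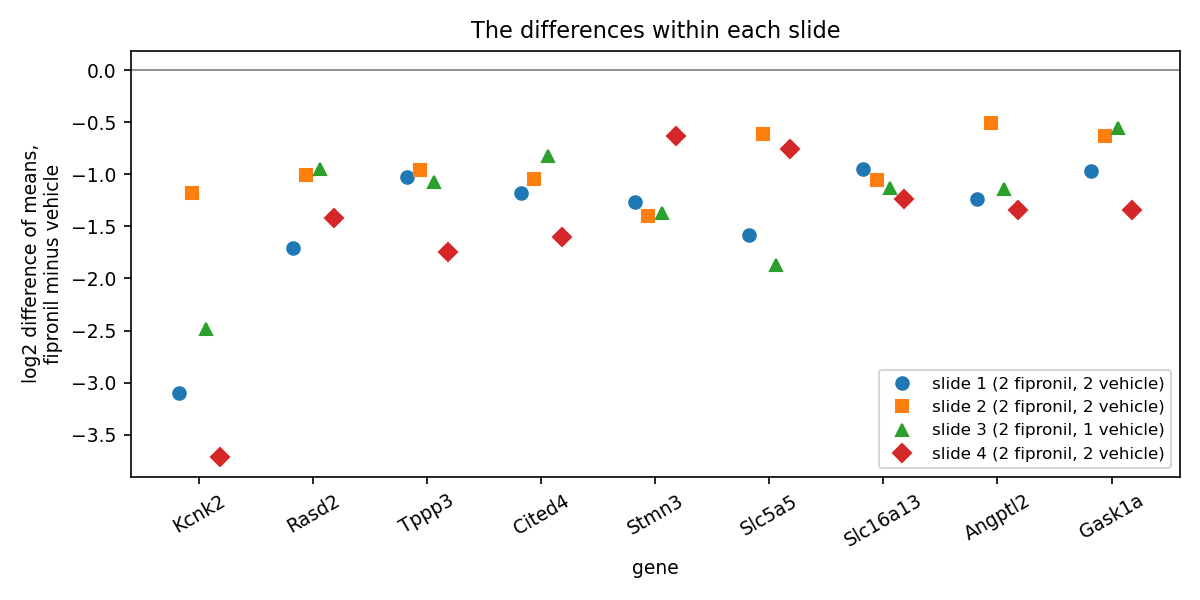
Difference of group means in log2 signal (fipronil minus vehicle) within each of the 4 slides for the 9 genes; symbols are slides, with the number of rats in the key. All points lie below 0, and Kcnk2 is the most spread, from -3.72 to -1.18.

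Whether the genes varied together among rats of the same group was not used in choosing them. After the group means were removed, 25 of the 36 pairs of genes had a positive correlation over the 15 rats. The median r was 0.17. With slide means removed as well, 20 of the 36 pairs were positive and the median r was 0.12. The share of positive pairs among all features was not computed, and nothing is read from these counts. The values that follow are from deviations from group means alone, unless slide means are named. One pair passed: Cited4 and Slc16a13, with r = 0.79 (two-sided permutation p = 0.00106, adjusted p = 0.0382 over 36 pairs) and rho = 0.83 (permutation p = 0.00034, adjusted p = 0.0122). Without the 2 rats farthest from the median it was r = 0.81, within the vehicle group 0.67 and within the fipronil group 0.89. With slide means removed as well, r was 0.83 and the permutation p, adjusted, rose to 0.0684. Fipronil replicates 2, 4 and 5, the upper set for Cited4, were also the 3 highest for Slc16a13. The next pair, Kcnk2 and Angptl2, had r = 0.70 and rho = 0.65 (permutation adjusted p = 0.110 and 0.274) and did not pass.

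Some rats lay on the same side of their group mean in most of the 9 genes. Fipronil replicate 7 was below its group mean in all 9, and fipronil replicate 5 was above it in 8. Among vehicle rats, replicate 2 was above the mean in 8 and replicate 3 in 2. These counts are a description, since the genes were measured on the same arrays and like counts over all features were not made.

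For each gene, the feature with a symbol that varied most like it within groups was found among 10870 features, over the 15 rats. Slc16a13 was closest to Tuba4a, an alpha tubulin (r = 0.91, rho = 0.84), and Angptl2 to Ccn3, a secreted matrix-associated protein (r = 0.90, rho = 0.85). Kcnk2 was closest to Dscc1 (r = 0.88), Cited4 to Spsb3 (0.88), Slc5a5 to the protease gene Htra1 (0.87), Stmn3 to Wdr83 (0.87), Tppp3 to Eef1akmt1 (0.86), Rasd2 to Sp110 (0.81) and Gask1a to the DNA methyltransferase gene Dnmt3b (0.80). Each is the highest of 10870 values, so no p is given, and without the 2 farthest rats the value of Gask1a and Dnmt3b was 0.54. None of the 9 look-alikes was called between the groups. Ccn3 had the largest difference among them, at -2.91 (limma adjusted p = 0.0587).

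The families of the 9 genes were read from 10 lists with 112 further genes, of which 65 were tested, 0 were called, against 0.85% of all features tested, and 3 lower and 6 higher had an unadjusted p under 0.05 (limma), against 17.5% of all features in either direction. Among two-pore potassium channels, 4 of 13 were tested with a median log2 difference of 0.07, and the smallest p was that of Kcnk6 at 0.16 (adjusted p = 0.619). The 11 tested Ras-like small G proteins had a median of -0.04, and Rasd1, the closest relative of Rasd2, was at -0.29 (adjusted p = 0.285). For the microtubule genes, the 6 tested tubulin polymerization, stathmin and microtubule-associated proteins had a median of 0.00, with Stmn1 at 0.52 (adjusted p = 0.181), and the 8 tubulins a median of 0.14, with Tubb6 at 0.41 (adjusted p = 0.128). Cited4's relatives and partners, 5 tested, had a median of 0.00, with Cited1 at -0.24 (adjusted p = 0.452). The medians of these 5 lists lay between -0.04 and 0.14, against -0.03 over all features.

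Beside Slc5a5, the 4 tested sodium cotransporters of its family had a median of -0.13, with the glucose cotransporter gene Slc5a2 at -0.19 (adjusted p = 0.600). Of 10 genes of thyroid iodide handling, 5 were tested with a median of 0.01; Tg, thyroglobulin, was at -0.28 (adjusted p = 0.292), while genes including the receptor gene Tshr, Slc26a4, Duox2 and Pax8 were not above background on enough arrays. The 5 angiopoietins and angiopoietin-like proteins had a median of -0.06. The 6 Golgi and secretory pathway kinases had a median of -0.14, and Fam20c, the kinase of secreted phosphoproteins, was at -0.43 (SE 0.10, adjusted p = 0.0668). Fam20c passed the threshold in 3 other settings, with values of -0.47 to -0.46.

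**Figure D4:**
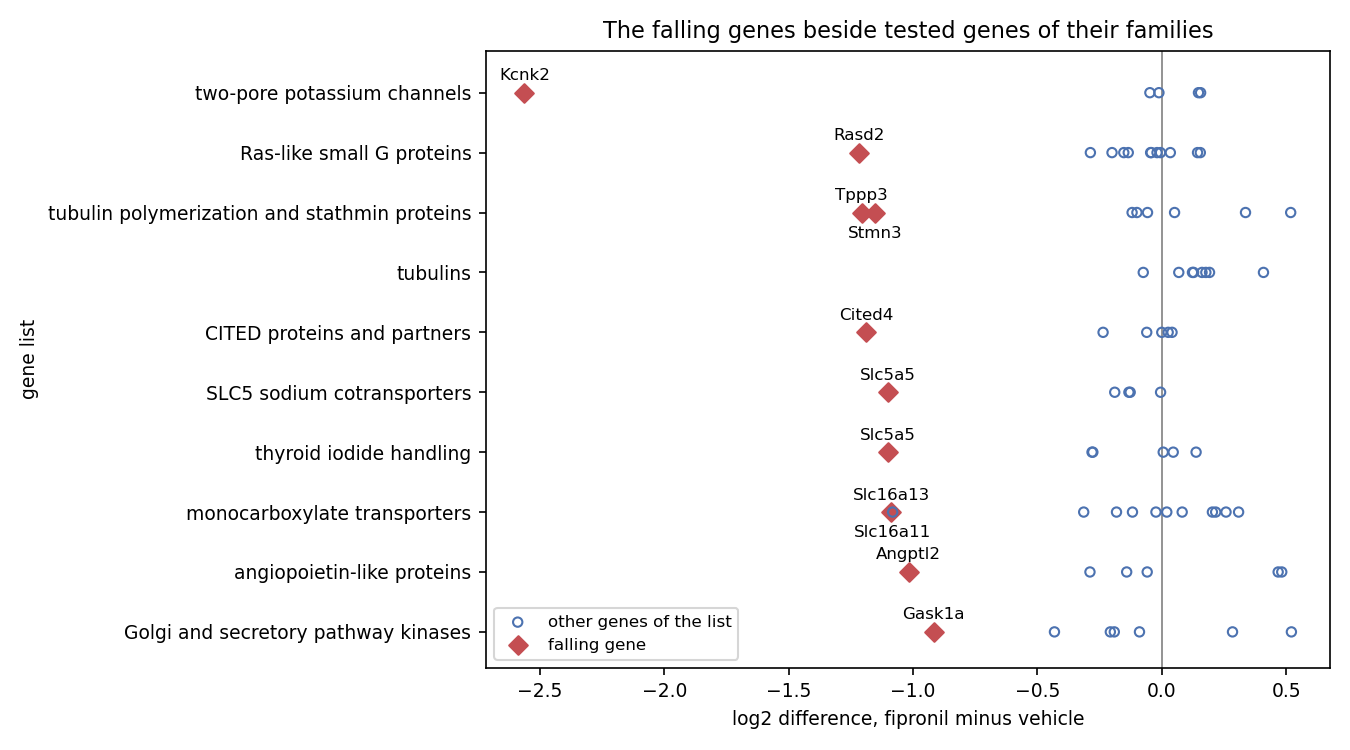
Log2 difference (fipronil minus vehicle, 15 rats) of tested genes in 10 family lists, as open circles, beside the 9 falling genes, as diamonds. Slc16a11 lies on top of Slc16a13, and the other circles lie between -0.43 and 0.52.

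Slc16a11 was the one relative as far from 0 as its list's falling gene. Of 11 tested monocarboxylate transporter genes and their partners Bsg and Emb, the median was 0.02, whereas Slc16a11 differed by -1.08 (SE 0.31, limma adjusted p = 0.105). Slc16a11 signal lay between 3.75 and 5.55 (median 4.96) with vehicle and between 2.89 and 5.06 (median 3.70) with fipronil, and the groups overlapped. It is also the gene next to Slc16a13 in the RefSeq annotation of GRCr8. Its deviations followed those of Slc16a13 with r = 0.51 (permutation p = 0.0657, adjusted p = 0.490 over 37 pairs) and rho = 0.64 (permutation p = 0.0153, adjusted p = 0.189) over 15 rats, so the relation did not pass. Without the 2 farthest rats r was 0.67, and with slide means removed 0.51 (permutation p = 0.105).

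Neighbours of the other genes lay closer to 0. Of the 36 protein-coding genes lying within 2 places of the 9 genes on either side, 23 were tested, with a median of -0.07 and a range of -1.08 to 0.35. Of these, 17 had a negative difference, against 55.5% of all features, 0 were called in limma, against 0.85%, and 2, Slc16a11 and Bcl6b, had an unadjusted p under 0.05, against 17.5%. On the far side of Slc16a11, Bcl6b differed by -0.46 (SE 0.14, limma adjusted p = 0.119), while Asgr2 and Clec10a on the other side of Slc16a13 were at -0.21 and -0.05. Rtel1 beside Stmn3 was at -0.26, and the remaining negative values were at -0.15 or nearer to 0. These neighbours were picked after values of the falling genes were known.

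**Figure D5:**
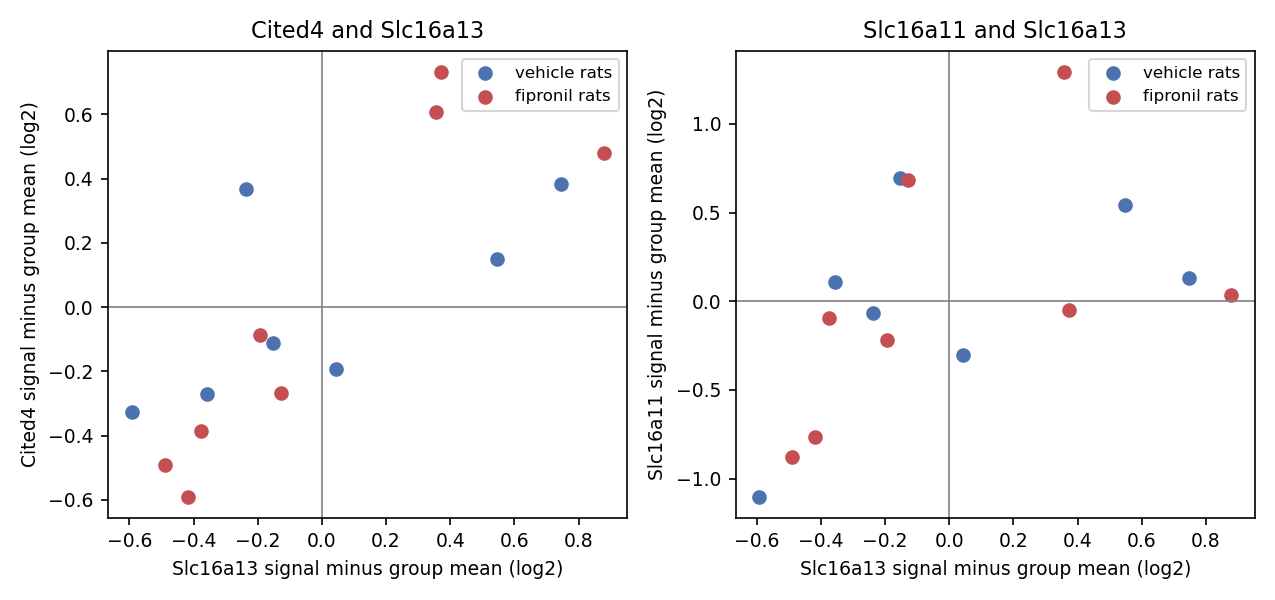
Deviation of each rat's signal from its group mean (log2) for Slc16a13 on the horizontal axes, against Cited4 on the left and its neighbour Slc16a11 on the right, in 7 vehicle and 8 fipronil rats. The left points rise together (r = 0.79) and the right points more loosely (r = 0.51).

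Markers of 13 cell types, 116 genes with 71 tested, held no gene that passed in the main comparison, and 6 lower and 7 higher had an unadjusted p under 0.05 in limma, against 0.85% called and 17.5% with such a p over all features. Hepatocyte markers leaned lower beside the falling genes, 9 of 10 with a median of -0.24 and a summed signal of 11.21 to 11.98 with vehicle and 10.90 to 11.39 with fipronil (Ttr -0.31, adjusted p = 0.195 in limma). All 5 tested mesothelial genes, which include the hepatocyte keratins Krt8 and Krt18, leaned lower with a median of -0.26 and sums of 8.20 to 8.78 and 7.86 to 8.44 (Krt18 -0.26, adjusted p = 0.226). Endothelial markers leaned higher, 5 of 7 with a median of 0.42 and sums of 6.16 to 6.65 and 6.48 to 7.43 (Stab2 0.42, adjusted p = 0.103). Kcnk2, Rasd2 and Stmn3 are known from neurons, and nerve and Schwann cell markers had 4 of 12 tested, with Gfap at -0.67 (adjusted p = 0.325), sums of -0.23 to 0.38 and -0.36 to 0.49, and genes including S100b, Ncam1, Nefl, Nefm, Uchl1, Snap25 and Syt1 not above background on 7 arrays. The other medians were 0.20 for macrophages (Lyz2 0.21), 0.04 for stellate cells (Reln 0.43), 0.01 for cholangiocytes (Epcam 0.51), 0.32 for T and NK cells (Klrd1 0.95), -0.29 for B cells (Cd22 -0.34), 0.54 for neutrophils (S100a9 0.55), -0.07 for erythroid cells, -0.07 for smooth muscle (Tagln -0.10) and -0.40 for the single ciliated-cell gene tested, Foxj1. Saturation was not examined for the marker probes. Alb (mean signal 8.70 with vehicle and 8.39 with fipronil) and Krt18 (8.41 and 8.15) were among the brightest of them. The part of saturation and array brightness in the leanings of bright markers was not tested, nor was that of these cell types in the falls.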

How the data were processed

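Liver RNA of 15 rats was hybridised with Cy3, 1 array per rat, per the labels' protocols. The deposited array files hold spot intensity values from Agilent Feature Extraction 9.5.3.1; per the file headers, the processed intensity had its background removed by a spatially detrended fit, took a surrogate value where dim, and had no scaling across arrays. Mean, median and local background intensity are uncorrected, and 0 or 1 flags mark saturated, well-above-background and outlier spots, per the file headers. The authors' deposited value table holds log2 values of 22244 probes; the submitters' processing notes name limma and Feature Extraction 9.5. Its column medians were 7.651 to 7.661 and its Spearman correlation with median intensity at least 0.99999 across probes, from which it was read as quantile-normalized median intensity; its rule for choosing probes is unknown.

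Outlier spots were left out and spots of a probe averaged. Symbols came from a RefSeq table of GRCr8 by accession (10768 probes), another accession (276), symbol (4993), synonym (3351), gene number (1037) or description (661), and 19926 probes had none. Features detected (well above background) on 7 or more arrays and missing on at most 3 were fitted with limma 3.58.1 in R 4.3.3 (lmFit and eBayes, two-sided), without covariates, with Benjamini-Hochberg adjustment over all 20129 features. In data simulated for this comparison, with 20129 features, 85% of log2 changes of 1 and 99% of changes of 2 were recovered, with 13 false calls. The simulated noise was independent between features, without slide or brightness differences. These figures therefore check the fit and do not give the error rate of the real comparison. Correlations used deviations from group means with 100000 permutations of rats within groups. The number of arrays limits the precision.

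Probe coordinates are rn4, per the file headers. A genome of that build, probe sequences and proteins were not used here, so exons and untranslated regions under probes are not given and cross-hybridisation was not examined. The labels call the rats replicates of a group. The named genes are the 9 genes, the smallest p of each list (a few single genes are not reported here), the 5 next falls and the most alike feature of each gene. These genes, lists and neighbours were chosen with earlier results of these data known.

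Alternatives were other background corrections, scalings, filters and probe rules, the authors' table, blocks for slide and replicate number, array brightness, array weights, trended variance, and leaving out each rat or slide.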

Additional observations from a re-analysis of the deposited data

Results flagged for a closer look

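Among 22 sets of values looked at for a sample far from the others (the 10 probes and the array 75th percentile in each group), 1 stood out, about as many as chance alone gives at 1 in 20. Fipronil replicate 2 had an array 75th percentile of 270.852, against 217.223 on the next brightest fipronil array and 186.149 on the dimmest, a gap of 0.633 of the whole range. In that rat 4 of the 9 genes were above the mean of the fipronil group, and leaving it out kept 8 of the 9 calls.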

How the results depend on the processing

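All 9 differences kept their direction in every alternative run. Of the 9 calls, 2 were left with array brightness as a covariate, 0 without slide 1, 5 without slide 2 and 2 without slide 4, and leaving out single rats gave 5 (without vehicle replicate 2) to 9; all other settings kept 6 to 9. Over the 34 or 35 alternatives, Gask1a lost its call in 1, Stmn3 in 1, Kcnk2 in 3, Cited4 in 3, Angptl2 in 4, Rasd2 in 6, Tppp3 in 10, Slc16a13 in 18 and Slc5a5 in 23. The 171 features called became 87 without the filter on dim probes (36211 tested), 40 with array brightness, 31 without slide 1 and 49 without slide 4, and 88 (without fipronil replicate 8) to 269 (without vehicle replicate 3) with single rats left out. It was also over 1.5 times lower without fipronil replicate 1 (110) or 7 (110) and without vehicle replicate 1 (103), 2 (89) or 7 (100). Of those 171, 63.2% were higher with fipronil; scaling to the array median gave 164 higher and 49 lower (77.0%), and brightness as a covariate 82.5%. The count of 0 called genes in the family and marker lists became 2 with normexp, 2 with median intensity, 2 in the authors' table, and 1 with quantile normalization of processed intensity, with the array median, with the percentile over detected probes and with slide as a block. The 1 correlated pair became 0 with slide means removed. The cause of these changes was not tested. Some of the fits also held fewer rats or more features, and the part of that was not tested either.

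Same-numbered rats of the 2 groups had correlations of deviations of -0.05 to 0.37, over 0.1 in 3 of 7, and 6 of these 7 shared a slide, so the numbers were not taken to pair the rats. With the replicate number as a block, 89 features (32 lower, 57 higher) and 8 of the 9 genes were called, Rasd2 (-1.12) being lost. The fipronil medians of processed intensity of Slc5a5, Stmn3, Kcnk2 and the dimmer Rasd2 probe were small, and this faintness limits these values. They are not on the scale of the local background, since background was already removed from processed intensity. Of 8 fipronil arrays, Slc5a5 was well above background on 4, Stmn3 and Kcnk2 on 7, and the dimmer Rasd2 probe on 8.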
